A study of Mus musculus with 4 samples.

Results

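The transcription factor NF-kB and its feedback genes were followed through 8 genes in single-cell RNA sequencing of mouse brain. The members were picked by symbol, with earlier results of these data known. These were the subunits Nfkb1, Rela, Nfkb2 and Relb, the IkB family genes Nfkbia and Nfkbiz, and the ubiquitin enzymes Tnfaip3 and Birc3. They are 8 of the 55487 genes counted, and each symbol matched 1 identifier, for example Nfkbia ENSMUSG00000021025.8 and Tnfaip3 ENSMUSG00000019850.11. All 8 are protein-coding, and on GRCm38 Nfkbia lies at chr12:55489410-55492647, Tnfaip3 at chr10:19000910-19015657, Nfkbiz at chr16:55811375-55838899, Relb at chr7:19606217-19629438, Nfkb1 at chr3:135584655-135691547 and Birc3 at chr9:7848699-7873186, all on the minus strand. Rela at chr19:5637483-5648130 and Nfkb2 at chr19:46304320-46312385 are on the plus strand. The series holds 4 libraries, 1 for each pairing of age and genotype: young WT Cre, young EC-K4KO and the old counterpart of each. Where 4 values follow each other without names, they keep that library order. WT Cre mice carry only the Cdh5-Cre driver, which is active in vascular endothelium. In EC-K4KO mice the driver, a tamoxifen-inducible Cre, is meant to delete floxed Klf4 from endothelial cells. Controls were littermates on the C57BL/6J background, the labels name both sexes for the experiments as a whole without saying which mice gave which library, age is labelled only as young or old, and the number of mice per library is not given in the sources used here. The labels describe an enrichment for endothelium, by a sort or by a marker, for the assays together and do not say which served here; many other cell types were present.

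No group had a replicate library. Intervals therefore cover counting error only, at 95%, and no difference between 2 libraries had a replicate check. Filters kept 20737 cells, with median depths of 4539 to 8759 UMIs (unique molecular identifiers, single captured RNA molecules) per cell among the libraries. Of these, 2762, 3351, 2180 and 1908 were endothelial-like by library, and all 8 endothelial markers, Cldn5 and Pecam1 among them, were present. The endothelial-like medians were 6334, 9833, 4691 and 3768 UMIs per cell in that order, so the old libraries were also the shallower ones. Library pairs shared 7 to 42 barcodes.

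Klf4 itself did not follow the labels. Its level in endothelial-like cells, in CPM, the usual count unit with UMIs scaled to the total of the class in each library, was 1701 in young and 2090 in old WT Cre, and 3274 in young and 3293 in old EC-K4KO. The libraries labelled EC-K4KO thus had a higher Klf4 level in CPM than the WT Cre libraries of either age. The additive model described below called Klf4 higher under the EC-K4KO label by log2 0.83 (adjusted p = 0.00471 by edgeR), and it did so in 6 of 6 settings. Neither UMIs from a deleted allele nor exchanged labels, which would turn every genotype direction, were tested, so these libraries are named below as the libraries labelled EC-K4KO, and every genotype direction rests on that label.

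NF-kB is a family of dimers made of Rel-homology subunits. In resting cells the p50-p65 dimer, encoded by Nfkb1 and Rela, is held in the cytoplasm by IkB alpha, the product of Nfkbia. Tumor necrosis factor, interleukin-1 and Toll-like receptor ligands activate the IkB kinase complex, IkB alpha is degraded and the dimer enters the nucleus, where it induces adhesion molecules, chemokines and its own inhibitors. A slower branch processes p100, encoded by Nfkb2, to p52, which pairs with RelB. In brain vessels the pathway is best known for switching on leukocyte adhesion.

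Several members are themselves textbook NF-kB targets, and the promoters of 3 of them are shown because they hold the 10-base NF-kB consensus. RefSeq start sites on GRCm38.p6 gave 8 windows for 5 of the 8 members (Rela, Nfkb2, Nfkbia, Tnfaip3 and Birc3), each from 250 bases before to 50 after the start. The consensus was searched on both strands, and its matches are in capitals, with the gene strand written 5′ to 3′.
Nfkbia promoter, chr12:55492598-55492897, minus strand: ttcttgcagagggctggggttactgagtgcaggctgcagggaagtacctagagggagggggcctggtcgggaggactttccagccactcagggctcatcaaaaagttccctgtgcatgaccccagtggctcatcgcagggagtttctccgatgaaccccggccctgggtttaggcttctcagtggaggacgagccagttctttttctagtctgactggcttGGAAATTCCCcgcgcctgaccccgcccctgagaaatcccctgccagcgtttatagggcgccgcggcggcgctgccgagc
Tnfaip3 promoter, chr10:19015361-19015660, minus strand: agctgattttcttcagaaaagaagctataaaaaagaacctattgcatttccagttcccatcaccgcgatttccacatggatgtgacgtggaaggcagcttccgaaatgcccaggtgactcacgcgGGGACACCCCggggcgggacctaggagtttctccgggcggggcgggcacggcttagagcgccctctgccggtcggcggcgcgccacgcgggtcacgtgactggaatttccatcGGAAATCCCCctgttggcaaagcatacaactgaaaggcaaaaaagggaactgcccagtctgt
Nfkb2 promoter, chr19:46304487-46304786, plus strand: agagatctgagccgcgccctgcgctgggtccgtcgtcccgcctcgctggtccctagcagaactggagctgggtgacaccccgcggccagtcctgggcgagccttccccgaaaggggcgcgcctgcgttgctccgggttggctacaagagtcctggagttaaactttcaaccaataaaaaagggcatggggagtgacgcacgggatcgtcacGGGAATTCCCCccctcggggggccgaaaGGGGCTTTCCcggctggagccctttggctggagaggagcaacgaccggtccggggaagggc

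In the Nfkbia window the match began 29 bases before the start site. In the Tnfaip3 window matches began 125 and 12 bases before it, and in the Nfkb2 window they began 39, 38 and 11 bases before it, the first pair overlapping. Matches were present in 3 of the 5 members with a window and in 5 of their 8 windows, the other 2 windows with one lying further along Nfkb2, where they overlap and share a site. The Rela and Birc3 windows and a second Tnfaip3 window held no match. Of all 32851 RefSeq windows, 8.46% held a match, and of the 27025 genes with a window, 9.55% did. A match is a run of letters, and no binding was measured here.

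Across cell classes most members were highest in microglia-like, border macrophage-like or endothelial-like cells, and by median all but Rela were lowest in astrocyte-like and oligodendrocyte-like cells. Levels were read in the 7 classes with at least 30 cells in every library and ranked by their median over the 4 libraries. Nfkbia ranked first in endothelial-like cells at 2748 CPM (range 1735 to 3494). Microglia-like cells followed at 2478 CPM (1931 to 3483), and these 2 ranges overlapped. Border macrophage-like cells came next at 875 CPM (800 to 1025), below both without overlap. Pericyte-like and smooth muscle-like cells ranged from 229 to 1100 and from 327 to 803 CPM, and oligodendrocyte-like and astrocyte-like cells stayed at or under 182 and 132 CPM.

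Tnfaip3, which encodes the ubiquitin-editing enzyme A20 that shuts off signaling to the IkB kinases, was highest in microglia-like cells. Its median was 418 CPM in microglia-like cells (330 to 616), 126 CPM in border macrophage-like cells (117 to 172) and 89.0 CPM in endothelial-like cells (40.5 to 131). The microglial range lay above every other class, while border macrophage-like and endothelial-like cells overlapped. Nfkbiz, which encodes the nuclear protein IkB zeta, followed the order microglia-like (median 510 CPM), border macrophage-like (416 CPM) and endothelial-like cells (191 CPM), the first and second overlapping. In astrocyte-like cells Tnfaip3 ranged from 0.462 to 6.60 CPM and Nfkbiz from 7.65 to 17.2 CPM.

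Among the subunits, Nfkb1 was highest in border macrophage-like cells (271 to 353 CPM) and microglia-like cells (224 to 394 CPM), ranges that overlapped. Endothelial-like cells held 95.5 to 114 CPM of Nfkb1, below both and overlapping pericyte-like cells. Rela was the most even member: endothelial, pericyte, border macrophage and microglia-like medians lay between 76.2 and 78.0 CPM with overlapping ranges, and astrocyte-like cells were lowest at 28.9 CPM. Nfkb2 and Relb were highest in microglia-like cells, with medians of 68.1 and 58.0 CPM, and both overlapped border macrophage-like cells. Their endothelial-like medians were 36.2 and 42.6 CPM, and each astrocyte-like median was 5.05 CPM or lower. Birc3, which encodes cIAP2, a ubiquitin ligase of tumor necrosis factor receptor complexes, had medians of 113 CPM in border macrophage-like, 74.9 CPM in microglia-like and 37.8 CPM in endothelial-like cells. In oligodendrocyte-like cells 1 UMI of Birc3 was counted, in young WT Cre, and the other libraries held 0, with upper limits of 1.98 to 8.94 CPM.

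**Figure D1:**
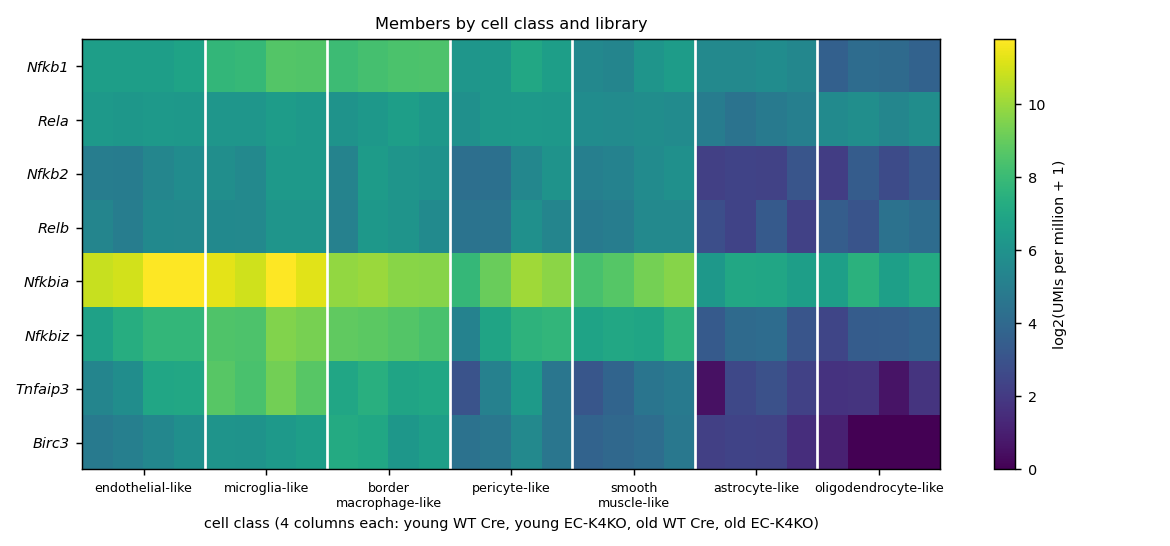
Level of each member (rows) in 7 cell classes and 4 libraries (columns), as log2(CPM + 1) on one color scale, CPM being UMIs scaled to the total of the class in that library. Nfkbia is brightest in endothelial-like and microglia-like columns, Tnfaip3 in microglia-like columns, and astrocyte-like and oligodendrocyte-like columns are the darkest for every member but Rela and Nfkb1.

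Summed over all endothelial-like cells, Nfkbia, Nfkbiz, Tnfaip3 and Birc3 were higher in the old libraries under either genotype label. For Nfkbiz under the EC-K4KO label, however, no single zone of the vessel tree showed it beyond counting error. Nfkbia stood at 1735 CPM and 2013 CPM in the young WT Cre and EC-K4KO libraries and at 3494 CPM and 3483 CPM in the old ones. Both old libraries lay above both young ones. The log2 ratio of old over young was 1.01 (interval 0.99 to 1.03) between the WT Cre libraries and 0.79 (0.77 to 0.81) between the libraries labelled EC-K4KO.

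Tnfaip3 had the largest age ratios of the 8 members. Its levels were 40.5 CPM and 53.4 CPM in the young WT Cre and EC-K4KO libraries, against 125 CPM and 131 CPM in the old ones. Old over young was 3.08-fold between the WT Cre libraries (log2 1.62, interval 1.51 to 1.73) and 2.45-fold between those labelled EC-K4KO (log2 1.29, 1.20 to 1.39). Both old values were above both young ones.

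Nfkbiz differed beyond counting error in every comparison except the old pair. It was at 105 CPM and 162 CPM in young WT Cre and EC-K4KO and at 221 CPM in both old libraries. Its age ratio was 2.11-fold between WT Cre libraries (log2 1.07, 1.00 to 1.15) and 1.36-fold between libraries labelled EC-K4KO (log2 0.45, 0.38 to 0.52). Without the venous-zone cluster described below, the latter was log2 0.10, the lowest of 10 settings, and under that label all 3 zones were near level with age. Birc3 was at 26.7 CPM, 33.4 CPM, 42.3 CPM and 58.0 CPM in the same order, so both age and label steps went up. Old over young was log2 0.67 (0.51 to 0.82) for Birc3 under WT Cre and 0.80 (0.66 to 0.93) under the EC-K4KO label.

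Of the subunits, Nfkb2 was at 30.6 CPM, 29.8 CPM, 41.8 CPM and 52.7 CPM in library order, and its age ratios were log2 0.45 (0.30 to 0.60) and 0.82 (0.68 to 0.97). Relb was at 39.7 CPM, 30.7 CPM, 46.3 CPM and 45.5 CPM, with age ratios of log2 0.22 (0.08 to 0.36) and 0.57 (0.42 to 0.72). The first of these Relb ratios was negative in 2 of 10 settings, at -0.09 with cells thinned to 1000 UMIs and -0.03 without the venous-zone cluster. The old and young point values did not overlap for either gene, but for Relb the counting intervals of young WT Cre (37.3 to 42.2 CPM) and old EC-K4KO (41.5 to 49.7 CPM) did.

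Nfkb1 and Rela, the pair of the canonical dimer, were nearly level. Nfkb1 stood at 97.1 CPM, 97.3 CPM, 95.5 CPM and 114 CPM, and the old EC-K4KO library alone was apart. Its age ratio between WT Cre libraries was log2 -0.02 (-0.12 to 0.07), a sign that turned to positive under TMM or DESeq2 scaling. Rela was at 79.0 CPM, 74.8 CPM, 82.6 CPM and 77.1 CPM, with age ratios of log2 0.07 (-0.04 to 0.17) and 0.04 (-0.07 to 0.15), whose intervals included 0.

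**Figure D2:**
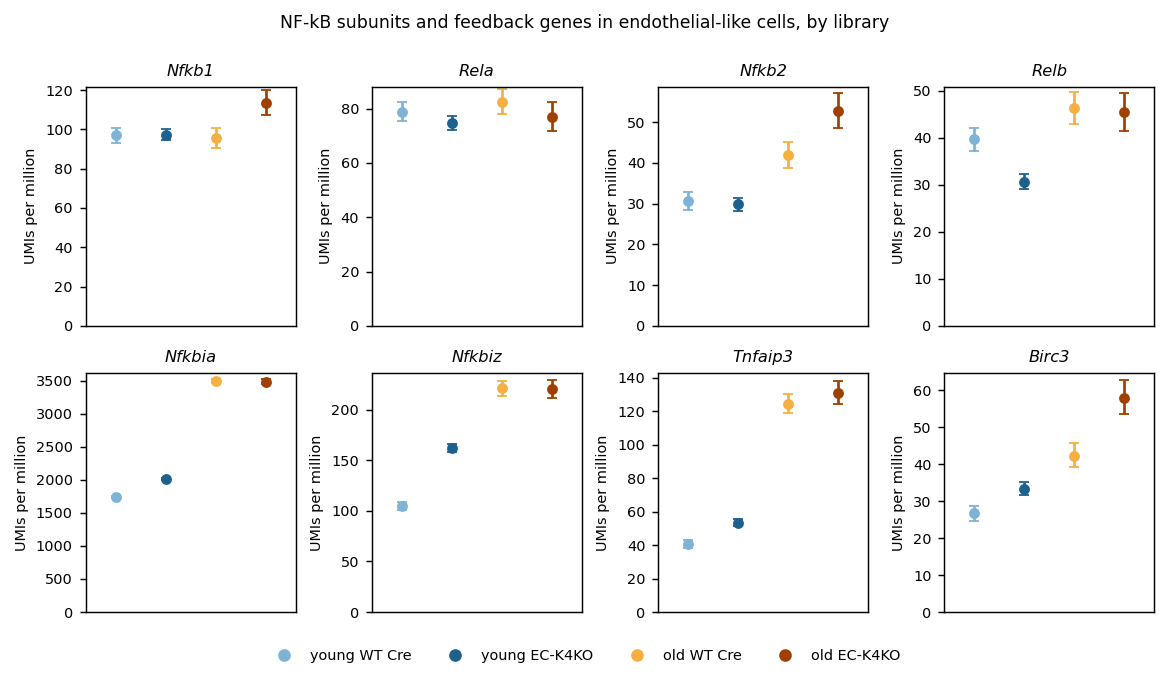
Level of the 8 members in endothelial-like cells of each library, in CPM, with exact Poisson 95% intervals (counting error only) and axes that start at 0. Nfkbia, Nfkbiz, Tnfaip3, Birc3, Nfkb2 and Relb have both old libraries above both young ones, whereas Nfkb1 and Rela do not.

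In 6 of the 8 members both old libraries exceeded both young ones, against 15.1% of the 8436 genes that averaged 10 CPM or more. Past 1.5-fold between WT Cre libraries were Nfkbia, Nfkbiz, Tnfaip3 and Birc3, 4 members, where 4.27% of all genes were that much higher in the old library. Between the libraries labelled EC-K4KO, Nfkb2, Nfkbia, Tnfaip3 and Birc3 passed, again 4 members, where 4.18% of all genes were that much higher. Because the members were chosen with earlier results of these data known, these counts and the model calls below are no independent evidence of direction. The median of the members was log2 0.56 and 0.68 in these comparisons, beside -0.18 and -0.15 over all genes. With TMM factors the all-gene medians were -0.04 and -0.06. Against the medians of -0.18 and -0.15, Nfkb1 lay at 0.16 and 0.37, Rela at 0.25 and 0.19, and Tnfaip3 at 1.81 and 1.44.

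An additive model of age and genotype label over the 4 endothelial-like sums, fitted across 14981 genes with edgeR's quasi-likelihood test, was the one test across libraries. It compares the 2 old with the 2 young libraries and leaves 1 residual degree of freedom per gene, so its p-values lean on a spread shared over genes. It called 6 of the 8 members higher in old libraries, where 11.5% of all genes tested were called higher, 7.8% lower and 19.3% in either direction. The log2 change with age was 1.60 ± 0.09 for Tnfaip3 (SE, adjusted p = 6.12e-06 by edgeR), 1.05 ± 0.11 for Nfkbia (1.48e-04), 0.91 ± 0.13 for Nfkbiz (0.00119) and 0.88 ± 0.08 for Birc3 (9.73e-05). Of the subunits, Nfkb2 rose by 0.79 ± 0.10 (adjusted p = 5.61e-04) and Relb by 0.54 ± 0.10 (0.00394). Nfkb1 at 0.25 ± 0.08 (adjusted p = 0.0550) and Rela at 0.20 ± 0.07 (0.0778) did not pass. DESeq2's Wald test gave Nfkbiz an adjusted p of 0.0587, and over all 6 settings of the fit its edgeR or DESeq2 value ranged from 1.31e-20 to 0.0587.

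**Figure D3:**
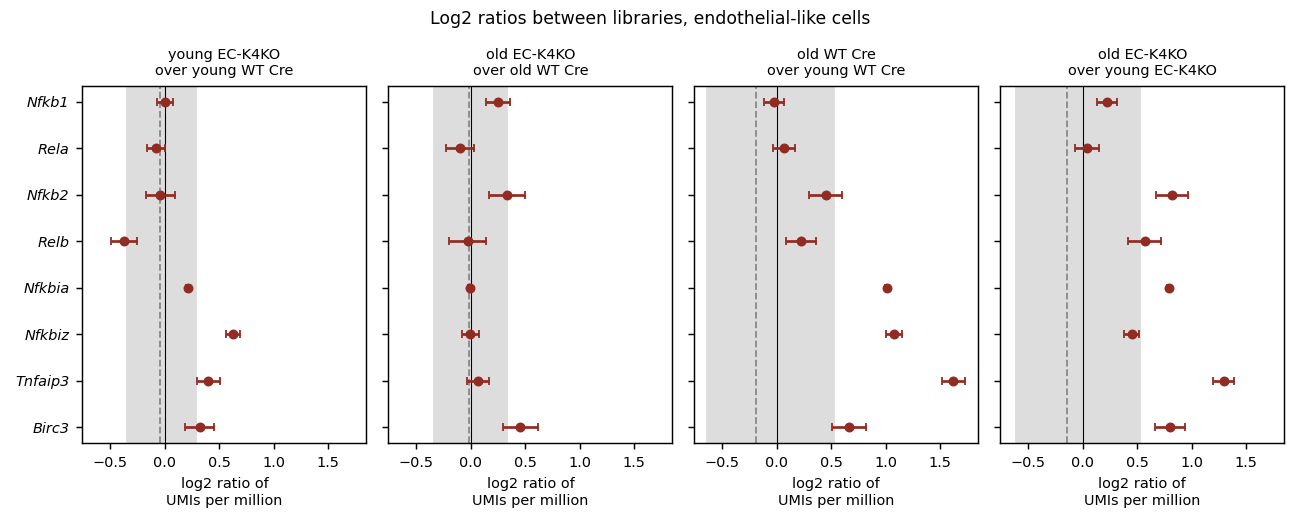
Log2 ratio of each member between libraries in endothelial-like cells for the 4 comparisons, with exact conditional binomial 95% intervals (counting error only). The gray band spans the 5th to 95th percentile of all 8436 genes averaging 10 CPM or more, the dashed line is their median and the thin line is 0. Tnfaip3 lies furthest to the right of the band in both age comparisons, and in the old genotype comparison only Birc3 lies beyond it.

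Depth and other RNA moved with age too. The summed level of the 17 immediate early and heat shock genes, a list that marks handling of tissue, was 15617, 20077, 23147 and 20987 CPM in endothelial-like cells by library. The additive model called 11 of these 17 higher with age and 0 lower. The 8 neutrophil markers summed to 6.96 to 10.2 CPM in 3 libraries and to 179 CPM in old EC-K4KO, while the 8 microglial markers stayed between 52.3 and 54.5 CPM. The part of handling and of other cells in the age differences was not tested. With every cell thinned to 1000 UMIs, members past 1.5-fold numbered 3 instead of 4 in each age comparison. The thinned median of the members was log2 0.47 between WT Cre libraries and 0.45 between those labelled EC-K4KO, and Nfkb1 and Relb had negative ratios between WT Cre libraries (-0.05 and -0.09).

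Between genotype labels 1 member passed 1.5-fold among the young libraries and 0 among the old ones. Nfkbiz in the young EC-K4KO library was 1.54-fold the young WT Cre level (log2 0.62, interval 0.56 to 0.69). Of all genes, 1.38% were at least 1.5-fold higher there and 1.16% at least 1.5-fold lower. Tnfaip3 (log2 0.40, 0.29 to 0.51), Birc3 (0.32, 0.19 to 0.46) and Nfkbia (0.21, 0.20 to 0.23) were also higher there. Relb was lower at log2 -0.37 (-0.49 to -0.25), and Nfkb1, Rela and Nfkb2 had intervals that included 0.

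In the old pair no member passed 1.5-fold in either direction, where 1.43% of all genes were that much higher and 1.33% that much lower. Nfkbiz at log2 0.00 (-0.08 to 0.07), Nfkbia at 0.00 (-0.02 to 0.01) and Tnfaip3 at 0.07 (-0.03 to 0.17) were within counting error of no difference. Birc3 (0.46, 0.29 to 0.62), Nfkb2 (0.33, 0.17 to 0.50) and Nfkb1 (0.25, 0.14 to 0.36) were higher in the old library labelled EC-K4KO. Whether the label difference itself differs between ages was not tested, because that takes replicate libraries.

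With genotype label as the term, the additive model called 1 member in endothelial-like cells, where it called 1.13% of all genes higher, 0.888% lower and 2.02% in either direction. Birc3 was higher under the EC-K4KO label by log2 0.42 ± 0.08 (adjusted p = 0.0316 by edgeR), and it was higher at both ages. That call was lost with DESeq2's Wald test (adjusted p = 0.572), with DESeq2 size factors and without the venous-zone cluster described below, and its adjusted p ranged from 0.00122 to 0.572 over the 6 settings, while the log2 change lay between 0.29 and 0.46. For Nfkbiz the change was 0.35 ± 0.13 (adjusted p = 0.303) and for Tnfaip3 0.27 ± 0.09 (0.257).

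The age changes were uneven along the rest of the pathway. Of 17 NF-kB target genes tested in endothelial-like cells, 15 rose with age and 0 fell, where 11.5% of all genes tested rose and 7.8% fell, and of 5 further subunits and IkB proteins 4 rose and 0 fell. Of 19 adaptors and kinases, by contrast, 4 rose, 2 fell and 13 did not pass. Of 13 ligands and receptors 5 rose and 1 fell, and of 7 other ubiquitin and RNA feedback genes 2 rose and 0 fell. Over the lists together, 30 of 61 genes rose and 3 fell, and without the venous-zone cluster described below 21 of 60 rose and 5 fell. All these lists were drawn up with results of these libraries known, so the counts are no independent evidence of direction.

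The selectin genes had the largest changes of those named here. Selp, which encodes P-selectin, was at 0.812 CPM and 3.64 CPM in young WT Cre and EC-K4KO and at 29.3 CPM and 37.1 CPM in their old counterparts, and Sele, which encodes E-selectin, was at 1.97 CPM, 7.15 CPM, 37.2 CPM and 53.7 CPM. Their log2 changes with age were 4.07 for Selp (adjusted p = 1.80e-05 by edgeR) and 3.54 for Sele (1.29e-05). Icam1 rose by 1.59, Vcam1 by 1.27, the neutrophil chemokine gene Cxcl2 by 2.32 and Ptgs2, which encodes cyclooxygenase-2, by 2.43. The young WT Cre level of Selp rests on 21 UMIs. Ptgs2, Icam1, Vcam1 and Sele are among the leading genes of the venous-zone cluster described below. That cluster gave 103 of 2762, 263 of 3351, 274 of 2180 and 297 of 1908 endothelial-like cells by library. Its part in these changes was not tested. Rel, the subunit c-Rel, rose by 1.44, Bcl3, an atypical IkB protein, by 1.45 and Zc3h12a, an RNase that degrades inflammatory transcripts, by 1.33.

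Upstream genes did not all change one way. The interleukin-1 receptor gene Il1r1 rose by log2 0.69 (adjusted p = 2.84e-04 by edgeR), Tnfrsf1a, a tumor necrosis factor receptor, by 0.38 and Ikbkb, an IkB kinase subunit, by 0.42. Map3k14, the kinase NIK of the slower branch, rose by 0.85. Cd40 fell by 0.50 on the log2 scale, Traf5 fell by 0.41 and Tab1 fell by 0.95. The adaptors Traf2 and Tradd had the lowest ratios of old over young WT Cre, log2 -0.95 and -0.80, and neither passed the model.

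By genotype label, 4 of the 61 pathway genes tested were called, all higher under the EC-K4KO label, where 2.02% of all genes were called in either direction. Without the venous-zone cluster 2 of 60 were higher and 1 lower, and with no filter on low counts 10 of 63 were higher and 2 lower. The 4 were Lcn2, the acute phase protein lipocalin-2 (log2 1.77, adjusted p = 3.02e-04 by edgeR), Ptgs2 (0.98, 0.00271), Cxcl1 (0.61, 0.00809) and Il1r1 (0.48, 0.0115). Lcn2 was at 37.5 CPM and 159 CPM in young WT Cre and EC-K4KO and at 230 CPM and 616 CPM in the old pair, where the neutrophil markers also summed highest under the EC-K4KO label; the part of neutrophil RNA was not tested. Selp, Lcn2 and Sele had the 3 highest ratios of the pathway lists in the young pair, log2 2.14, 2.09 and 1.84. In the old pair Cd40 (-0.69), Icam1 (-0.38) and Rel (-0.29) were lowest, whereas Vcam1 was at 0.69 and Ptgs2 at 0.72.

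The members were not spread evenly along the vessel tree. Endothelial clusters were sorted by fixed zone markers into a capillary zone (4 clusters), an arterial zone (3 clusters) and a venous zone, which is a single cluster led by Ackr1 and Ch25h and, further down, by the pathway genes Ptgs2, Icam1, Vcam1 and Sele. The zone markers overlapped: the venous cluster held 6 of the 6 venous and 6 of the 7 capillary markers, and the largest capillary cluster, led by Ndnf and Car4 (2299 cells), held 6 of the 7 capillary and 5 of the 6 venous ones. Of the other capillary zone clusters, one led by Chga and Cga, which are endocrine genes, holds 1924 cells, and one led by Gm9946 and Slc26a10 held 4 of the 7 arterial markers beside 5 of the 7 capillary ones. A last cluster of 86 cells, led by Plvap, fell in no zone. The members and pathway genes took no part in the clustering, but the clusters rest on the same cells, so the zone levels are a description. The venous zone held 103, 263, 274 and 297 cells by library, and the capillary zone held 2298, 2542, 1407 and 1236. Within the capillary zone the cluster led by Ndnf and Car4 gave 895 of the young WT Cre cells but 241 of the old WT Cre cells, where the cluster led by Krt14 and Krt15 held 597.

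In 7 of 8 members the venous zone exceeded the capillary zone in every library, the exception being Rela, where 16.8% of the 8388 genes averaging 10 CPM or more did so. Nfkbiz had the steepest difference, from 6.50-fold to 10.5-fold among the 4 libraries, followed by Tnfaip3 with 4.55-fold to 6.28-fold. Nfkbia was 2.48-fold to 3.45-fold higher, and Birc3 2.08-fold to 2.98-fold. For Nfkb1 the venous excess was 1.30-fold and 1.21-fold in the young WT Cre and young EC-K4KO libraries and 1.82-fold and 2.24-fold in the old WT Cre and old EC-K4KO libraries.

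Within zones the age ratios separated the members. Tnfaip3 in the capillary zone was at 27.8 CPM, 27.6 CPM, 65.3 CPM and 55.2 CPM by library. In the venous zone it was at 152 CPM, 173 CPM, 297 CPM and 284 CPM. Both old libraries thus lay above both young ones in either zone, and in the arterial zone as well (28.3 CPM and 35.6 CPM young, 69.7 CPM and 86.4 CPM old). Nfkbia also had both old libraries higher in the capillary zone (1410 CPM and 1365 CPM young, 2250 CPM and 2169 CPM old), but in the venous zone the age ratios were smaller, log2 0.36 and 0.19.

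The clusters of the capillary zone differed in this. In the cluster led by Krt14 and Krt15, which held 324 of 2298, 575 of 2542, 597 of 1407 and 549 of 1236 capillary zone cells by library, Tnfaip3 was at 36.4 CPM, 41.9 CPM, 108 CPM and 91.9 CPM by library and Nfkbia at 1995 CPM, 1840 CPM, 3367 CPM and 3057 CPM. In the cluster led by Ndnf and Car4, Tnfaip3 was at 30.1 CPM, 26.5 CPM, 40.4 CPM and 28.4 CPM and Nfkbia at 1388 CPM, 1274 CPM, 1429 CPM and 1551 CPM. By point value, old EC-K4KO was there below young WT Cre for Tnfaip3, while for Nfkbia both old libraries were above both young ones. The clusters led by Chga and Cga and by Gm9946 and Slc26a10 did not have both old libraries above both young ones for Tnfaip3 (9.75 to 22.0 CPM) or Nfkbia (933 to 1161 CPM in WT Cre, 970 to 1166 CPM under the label). Nfkb2 in the cluster led by Chga and Cga was at 22.4 CPM and 15.7 CPM in the young WT Cre and EC-K4KO libraries and lower in both old ones, down to 8.53 CPM. Cluster shares and levels within clusters thus both differ between ages in the zone sums, and their parts were not separated.

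Nfkbiz was nearly flat with age in the venous zone, at 510 CPM, 520 CPM, 569 CPM and 516 CPM. In the arterial zone it was at 97.1 CPM, 129 CPM, 136 CPM and 127 CPM, and in the capillary zone young WT Cre alone was low (48.4 CPM against 77.7 to 79.4 CPM). Nfkb1 went opposite ways. Old over young was log2 -0.23 (-0.38 to -0.09) and -0.22 (-0.37 to -0.06) in the capillary zone for WT Cre and the EC-K4KO label, and 0.25 (0.05 to 0.45) and 0.68 (0.52 to 0.83) in the venous zone. Against an all-gene median that itself lay near -0.17 and -0.14 outside the venous cluster, the capillary values were close to the median gene. No test of the difference between zones was made.

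The young genotype difference of Tnfaip3 was also uneven over zones. The ratio of young EC-K4KO over young WT Cre was log2 -0.01 (-0.18 to 0.15) in the capillary zone, 0.19 (0.02 to 0.35) in the venous zone and 0.33 (0.03 to 0.63) in the arterial zone, beside 0.40 for the whole class. For Nfkbiz, by contrast, it was 0.68 (0.57 to 0.80) in the capillary and 0.03 (-0.06 to 0.12) in the venous zone.

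**Figure D4:**
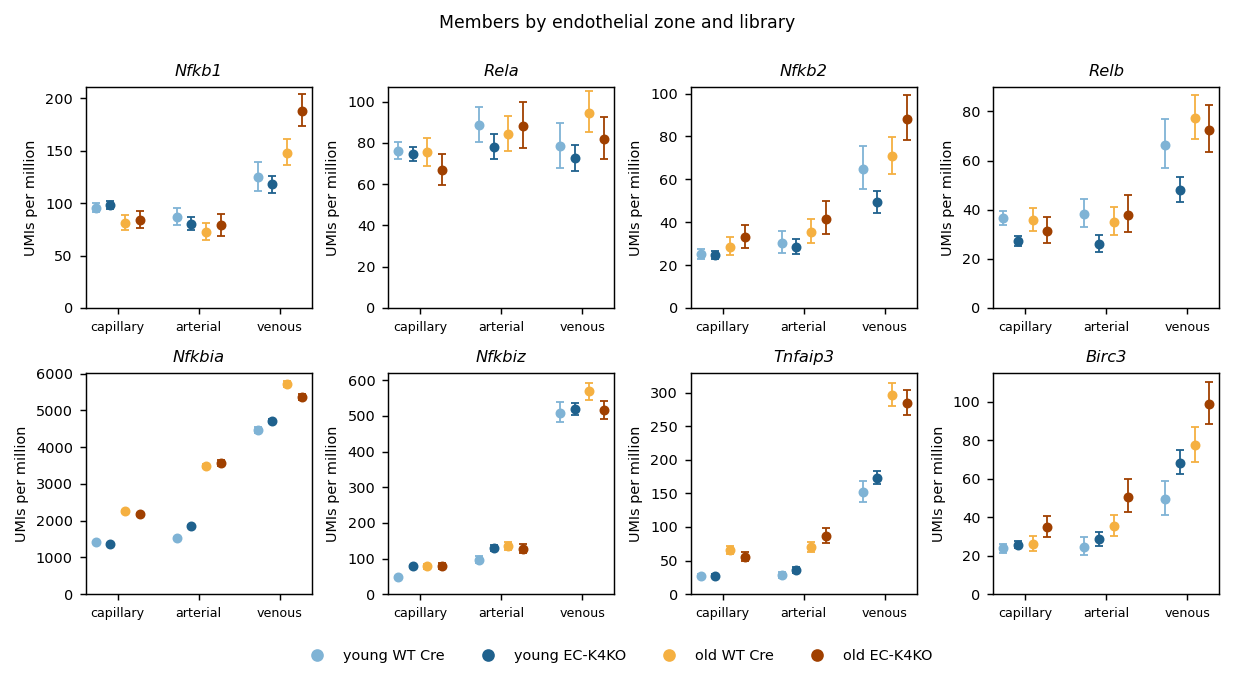
Level of each member in the capillary, arterial and venous zones of endothelium by library, in CPM with exact Poisson 95% intervals. Every member but Rela is highest in the venous zone. By point value Tnfaip3, Nfkbia, Birc3 and Nfkb2 have both old libraries above both young ones in all 3 zones, although the zones pool clusters that differ. Intervals overlap in all 3 zones between young EC-K4KO and old WT Cre for Birc3 (25.6 CPM and 26.0 CPM in the capillary zone). For Nfkb2 they overlap in all 3 zones between young and old WT Cre.

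Without the venous-zone cluster the additive model called 5 members higher with age, where 10.7% of all genes were called higher. Relb lost its call, with a log2 change of 0.28 (adjusted p = 0.0884 by edgeR), and over the 6 settings its adjusted p ran from 5.86e-06 to 0.0884. Nfkb1 turned from 0.25 to -0.09 without passing in either case. The change of Tnfaip3 went from 1.60 to 1.35, that of Nfkbia from 1.05 to 1.04, that of Nfkbiz from 0.91 to 0.59, that of Birc3 from 0.88 to 0.62 and that of Nfkb2 from 0.79 to 0.54.

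Microglia-like cells, the class fitted beside endothelium, numbered 327, 574, 1187 and 597 and held all 8 microglial markers, Tmem119 and P2ry12 among them. The additive model called all 8 members higher with age there, where 15.6% of the 10878 genes tested were called higher, 11.2% lower and 26.9% in either direction. Nfkbiz had the largest change, log2 1.19 ± 0.08 (SE), from 372 CPM and 358 CPM in young WT Cre and young EC-K4KO to 736 CPM and 649 CPM in the old pair. Nfkb1 rose by 1.03 ± 0.08, from 224 CPM and 232 CPM to 394 CPM and 378 CPM. Nfkb2 rose by 0.99 ± 0.13, Relb by 0.84 ± 0.13, Tnfaip3 by 0.73 ± 0.08, Birc3 by 0.69 ± 0.12, Nfkbia by 0.67 ± 0.07 and Rela by 0.50 ± 0.12, whose adjusted p of 2.11e-04 (edgeR) was the highest of the 8. DESeq2's Wald test called 7, with Rela at an adjusted p of 0.184. In 7 members both old libraries exceeded both young ones, against 15.7% of 7841 genes, and Nfkbia was the exception. A cluster led by Spp1 and Clec7a (10, 11, 118 and 164 cells by library) stayed unnamed and is not part of this class. With the stricter cell filter, a cluster led by Clec7a and Spp1 (357 cells) was named microglia. That setting therefore changes the make-up of the class as well.

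These microglial differences went with 1 cluster. A cluster led by Ccl3 and Ccl4, chemokine genes that NF-kB induces, gave 67 of 327, 93 of 574, 854 of 1187 and 412 of 597 microglia-like cells by library. All 8 members were higher in it than in the other microglia-like cells in every library, where 12.4% of 7831 genes were, with folds from 3.25-fold to 5.52-fold for Nfkbiz, 2.39-fold to 3.33-fold for Nfkb1 and 2.28-fold to 2.71-fold for Birc3. Without that cluster, an alternative chosen after seeing the data, 1 member kept a call with age, where 3.58% of the genes tested were called higher. That was Relb, at log2 0.74 (adjusted p = 0.0152 by edgeR). The other 7 lay between -0.05 and 0.21 with adjusted p of 0.755 or above.

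Within the cluster itself Nfkb1 was the 1 member with both old libraries above both young ones, and within the other microglia-like cells Relb was. Nfkb1 was at 393 CPM, 424 CPM, 467 CPM and 447 CPM in the 4 libraries. Tnfaip3 was at 734 CPM, 847 CPM, 732 CPM and 484 CPM, so that the old EC-K4KO library was lowest. The 17 immediate early and heat shock genes summed to 20030, 18690, 15265 and 13169 CPM in the cluster and to 13722, 12926, 11977 and 10979 CPM in the other microglia-like cells, and the part of handling in the cluster was not tested.

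By genotype label, 2 members were called in microglia-like cells, both lower under the EC-K4KO label, where 0.781% of genes were called lower, 0.432% higher and 1.21% in either direction. Nfkbia fell by 0.45 ± 0.07 on the log2 scale (adjusted p = 6.58e-09 by edgeR), from 2513 CPM to 1931 CPM in the young pair and from 3483 CPM to 2443 CPM in the old pair. Tnfaip3 fell by 0.46 ± 0.08 (adjusted p = 1.84e-06), from 415 CPM to 330 CPM and from 616 CPM to 420 CPM. For Tnfaip3, neither part of the class held that direction at both ages. Tnfaip3 went from 734 to 847 CPM and from 732 to 484 CPM in the Ccl3 and Ccl4 cluster. In the other microglia-like cells it went from 301 to 182 CPM and from 215 to 221 CPM. Nfkbia was lower under the label at both ages in both parts. It went from 3930 to 3471 CPM and from 3993 to 2741 CPM in the cluster. In the other cells Nfkbia went from 2005 to 1489 CPM and from 1713 to 1515 CPM. Nfkbia passed in all 6 settings of the fit, with adjusted p from 1.35e-10 to 0.0390. Tnfaip3 missed with DESeq2's Wald test (adjusted p = 0.144) and without the Ccl3 and Ccl4 cluster (0.0835), while its log2 change was -0.45 and -0.41 there and lay between -0.68 and -0.41 over all 6. Of the 17 immediate early and heat shock genes, 7 were lower under the same label and 0 higher.

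**Figure D5:**
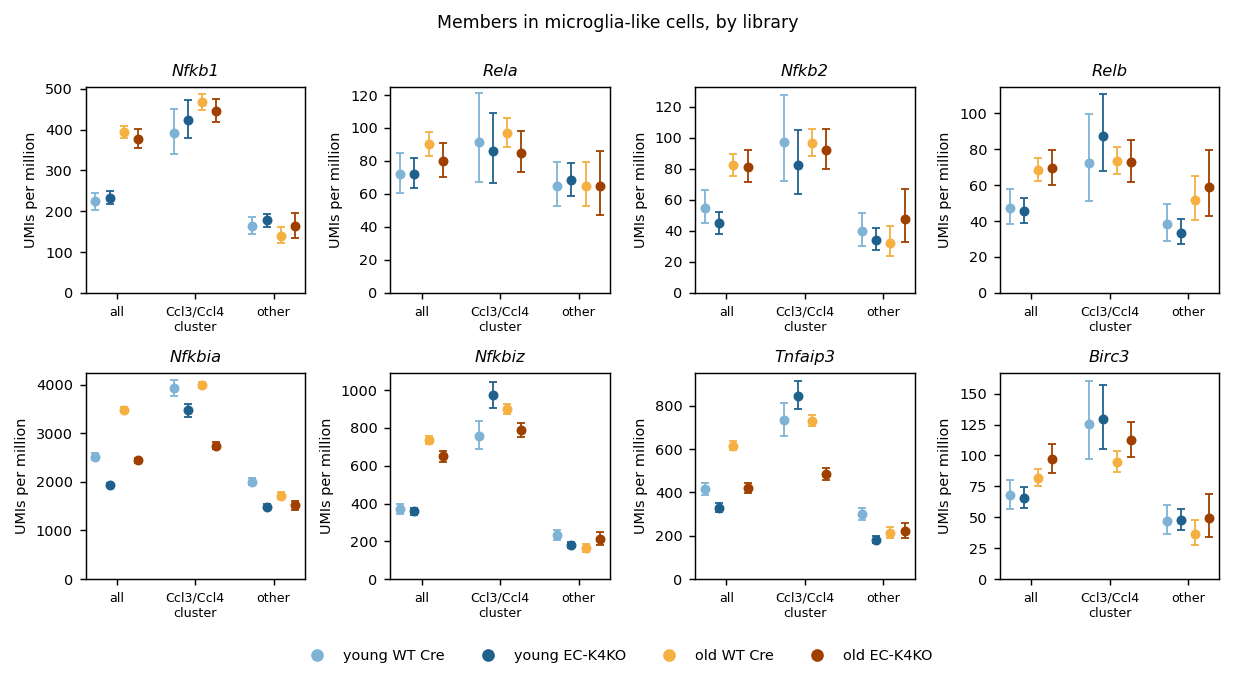
Level of each member in all microglia-like cells, in the cluster led by Ccl3 and Ccl4 and in the other microglia-like cells by library, in CPM with exact Poisson 95% intervals. In the whole class the old libraries are higher for every member except Nfkbia, whereas that order remains for Nfkb1 alone within the Ccl3 and Ccl4 cluster and for Relb alone in the other cells.

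In the mural cells of the vessel wall Nfkbia was higher in the old libraries as well. In pericyte-like cells it was at 229 CPM, 536 CPM, 1100 CPM and 849 CPM in library order, and Nfkbiz was at 36.4 CPM, 115 CPM, 195 CPM and 213 CPM. Young WT Cre was the lowest library for both. The pericyte-like cluster led by Ccl19, a chemokine gene, and Il6, a cytokine gene, gave 20 of 266, 88 of 410, 84 of 288 and 29 of 154 pericyte-like cells by library, and its part in these differences was not tested. Tnfaip3 in pericyte-like cells had log2 ratios of 2.23 (1.25 to 3.57) between the young libraries and -1.80 (-2.98 to -0.91) between the old ones, opposite in direction and on 8 to 81 UMIs a library. In smooth muscle-like cells Nfkbia was at 327 CPM, 409 CPM, 627 CPM and 803 CPM, with age ratios of log2 0.94 (0.84 to 1.04) and 0.97 (0.88 to 1.06). Border macrophage-like cells went the other way for Nfkbia, with age ratios of log2 -0.23 (-0.41 to -0.04) and -0.36 (-0.56 to -0.16), and for Nfkbiz, with -0.28 (-0.54 to -0.02) and -0.41 (-0.73 to -0.12). No model was fitted in these classes, and the part of RNA from other cells in their values was not tested.

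Likeness of pattern was measured as Pearson r of log2(CPM + 10) over the 28 sums of 7 classes in 4 libraries, among the 7183 genes that averaged 20 CPM or more. The sums share 4 libraries and differ mainly by class, so r describes class patterns and carries no p. The genes nearest Nfkb1 were Cyba (0.97), Baz1a (0.96) and Birc3 (0.95), and Tmsb4x (0.90) was nearest Rela. Nfkb2 was nearest Kdm6b (0.96), Nfkbiz (0.95) and Rpl21 (0.95), and Relb was nearest Rpl21 (0.94), Nfkb2 (0.94) and Mcl1 (0.94). Nfkbia was nearest Peli1 (0.94), Tubb5 (0.94) and Ier5 (0.93), and Nfkbiz was nearest Ier5 (0.98), Ppp1r18 (0.97) and Rap1b (0.96). Tnfaip3 was nearest Gsdmd (0.96), Gngt2 (0.96) and Casp4 (0.95), and Birc3 was nearest Rap1b (0.96), Tgfb1 (0.96) and Sdcbp (0.95). A member was thus among the 3 nearest genes of Nfkb1, Nfkb2 and Relb, and of none of the other 5.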

How the data were processed

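Single-cell RNA sequencing of mouse brain was deposited by the authors as raw UMI counts for each gene and barcode. The file headers name Cell Ranger 6.0.2, and the labels name mm10 (GRCm38), Cell Ranger and Seurat. The mapping of 99.3% of identifiers to GENCODE M21 was checked. Barcodes needed at least 500 genes, 1000 UMIs and at most 10% mitochondrial UMIs. Scrublet's automatic threshold marked few barcodes (39 to 150 a library), so its highest scores were removed at 0.8% per 1000 cells (147 to 385). Cells were clustered with Leiden (scanpy 1.11.5, leidenalg 0.10.2, resolution 1) on 2000 variable genes without the members, pathway genes, immediate early genes and Klf4. The 34 clusters were named from fixed markers: at least 3 and 50% of a class's markers, each at 20 CPM and 25% of its highest cluster. A further demand for a marker among the leading genes was dropped after the clusters had been seen. Names are rebuilt ones, and 4 clusters stayed unnamed.

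UMIs were summed per class and library (endothelial-like totals were 25848433, 43382489, 15225724 and 10758540) and scaled to CPM. Levels carry exact Poisson intervals and log2 ratios, with 0.5 UMIs added, exact conditional binomial intervals. Comparisons were the 2 genotype pairs and the 2 age pairs, which share libraries. The additive model used edgeR 4.0.16 (TMM, filterByExpr, quasi-likelihood) with Benjamini-Hochberg adjustment at 0.05, DESeq2 1.42.0 being an alternative. Each SE beside an edgeR change was derived from the test, as the absolute log2 change divided by the square root of its F statistic. The scripts were tested on simulated data. Named genes were the members, Klf4, pathway genes called by the model or among the 3 highest or 3 lowest ratios of a comparison, and the 3 genes most like each member, of which those after the nearest to Rela are not reported here. The members and gene lists were chosen with earlier results of these data known.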

Additional observations from a re-analysis of the deposited data

Results flagged for a closer look

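One result went opposite ways in the 2 classes modeled. The log2 ratio of Tnfaip3 between the library labelled EC-K4KO and WT Cre was positive in endothelial-like cells at both ages, 0.40 (interval 0.29 to 0.51) young and 0.07 (-0.03 to 0.17) old. In microglia-like cells it was negative at both, -0.33 (-0.46 to -0.20) young and -0.55 (-0.65 to -0.46) old. Within that class the sign was not held: in the cluster led by Ccl3 and Ccl4 the ratio was 0.21 (0.02 to 0.39) young and -0.59 (-0.69 to -0.50) old, and in the other microglia-like cells -0.73 (-0.91 to -0.54) young and 0.04 (-0.25 to 0.32) old. The young endothelial ratio was positive in 10 of 10 settings, down to 0.0890 without the venous-zone cluster, and was -0.01 (-0.18 to 0.15) in the capillary, 0.19 (0.02 to 0.35) in the venous and 0.33 (0.03 to 0.63) in the arterial zone. The old endothelial interval included 0, and that ratio was positive in 6 of 10 settings and negative in 4, down to -0.23. Within zones it was -0.24 (-0.47 to -0.02) in the capillary, -0.06 (-0.19 to 0.07) in the venous and 0.31 (0.06 to 0.56) in the arterial zone. The difference between classes was not tested, and each ratio rests on 1 library per group.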

How the results depend on the processing

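No paired analysis was possible because each group holds 1 library and the groups share only replicate number 1; for the same reason no replicate could be left out with a residual remaining. The median of the members kept its positive sign in both age comparisons under all 9 alternatives. Old over young WT Cre, 0.56, moved to 0.73 with DESeq2 size factors, 0.39 with cells weighted equally and 0.30 without the venous-zone cluster. Old over young under the EC-K4KO label, 0.68, moved to 0.80 with size factors, 0.88 with endothelial cells chosen by each cell's marker UMIs, 0.45 with cells thinned to 1000 UMIs and 0.44 without the venous-zone cluster. The young genotype median, 0.11, became 0.17 with TMM, 0.17 with size factors, 0.0450 by marker UMIs and 0.0195 without the venous-zone cluster, and the old one, 0.03, became -0.0775 when thinned. Members past 1.5-fold in the young genotype pair numbered 1, but 0 with the stricter cell filter, 0 by marker UMIs and 2 when thinned. In the age comparisons the 4 members past 1.5-fold became 3 to 5 between WT Cre libraries and 3 to 6 under the EC-K4KO label, with 3 in both when thinned or without the venous-zone cluster.

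In the additive model, endothelial-like genes called with age fell from 2897 to 991 with DESeq2's Wald test. Those called by genotype label, 302, became 179 with size factors, 794 with no filter on low counts and 117 with the Wald test, and members called, 1, became 0 with size factors, the Wald test or no venous-zone cluster and 2 with no filter (Birc3 and Nfkbiz). With 0 called, 3 members with size factors, 3 without the venous cluster and 1 by the Wald test had an unadjusted p under 0.05. In microglia-like cells the Wald test called 667 genes with age instead of 2923 and 14 by label instead of 132, with 1 member by label instead of 2. Without the cluster led by Ccl3 and Ccl4, added after seeing the data, 485 genes and 1 member were called with age, and 51 genes and 1 member by label. There the age changes of Birc3 (-0.0443), Nfkb1 (-0.0483), Nfkbiz (-0.0456) and Tnfaip3 (-0.0178) turned negative. The causes of these shifts were not tested. Depth limits the low genes: in the smaller classes several members rest on few UMIs, and with 1 library per group the spread between mice is unknown.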
